A study of Rattus norvegicus with 3 samples.

Results

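The matrix proteases described here are the genes of the matrix metalloproteinases (Mmp), the membrane-anchored disintegrin metalloproteinases (Adam), the secreted Adam enzymes with thrombospondin repeats (Adamts), the protease-free Adamts-like glycoproteins (Adamtsl) and the tissue inhibitors of metalloproteinases (Timp). They were chosen by symbol, as a family name followed by digits alone, and by a measured value, at least 20 unique molecular identifiers (UMIs, each a counted RNA molecule) summed over all kept cells. The symbols of 70 listed genes matched, and 53 of them reached 20 UMIs, among 16588 of 32623 listed genes that did so. The members were 13 Mmp, 14 Adam, 18 Adamts, 4 Adamtsl and 4 Timp genes. The cells came from the cochlear basal membrane of untreated Sprague-Dawley rats at postnatal day 1 (P1), P7 and P14, with the rats of a stage combined into 1 droplet-based single-cell library (10x Genomics, 3′ ends). The labels call every sample greater epithelial ridge cells, and the study's methods describe enzymatic dissociation of the whole dissected membrane after removal of the spiral ganglion, spiral ligament and stria vascularis. With 1 library per stage no difference between stages was tested, and a stage and its library cannot be told apart.

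Matrix metalloproteinases are zinc enzymes, secreted or anchored in the membrane, that cut collagens, gelatin, laminins and other proteins of the extracellular matrix, and most leave the cell as inactive proenzymes. Timp proteins bind their active sites one to one, and Timp2 also takes part, together with membrane-bound Mmp14, in the activation of proMmp2. Adam proteins shed the outer parts of membrane proteins such as Notch ligands and growth factor precursors, while Adamts enzymes trim procollagens and cut large proteoglycans such as versican and aggrecan.

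The 3 libraries were not equally deep. Kept cells numbered 12779 at P1, 12581 at P7 and 5281 at P14, with median UMI counts per cell of 6565, 6878 and 1614, and 16 to 53 kept barcodes were shared by a pair of libraries. Levels are given as the UMIs of a gene in every 1000000 UMIs of the same cells (CPM), not divided by length, since each molecule is counted once at its 3′ end. Ranges in parentheses are exact 95% Poisson intervals, or exact binomial ones for shares, and cover counting error only.

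Most cells did not carry the markers of the labelled cell type. Clusters were named by marker lists as stromal-like, glial-like (Schwann and satellite cells), endothelial-like, mural-like (pericytes and smooth muscle), epithelial-like, neuron-like, macrophage-like and B cell-like, and are called stromal, glial and so on from here. A further 5 clusters, with 1622 cells or 5.29% of kept cells, were left unnamed and are not among the classes ranked below. Stromal clusters held 63.1% of kept cells, with 9122, 7306 and 2909 cells at P1, P7 and P14, and the epithelial cluster, led by Epcam and Epyc, held 1.88%. Over whole libraries the cochlear epithelium markers summed to 131, 228.7 and 236.8 CPM, against 9089.1, 11338 and 13108 CPM for the stromal markers. A cluster led by Lyz2 and Tyrobp was left with its gene as name, since its neutrophil markers exceeded its macrophage markers at P1 (29780 against 8750.8 CPM) and at P14 (2723.7 against 2048.9 CPM) but not at P7 (1060.5 against 7180.7 CPM). The clusters were made from these same cells, so differences between classes are described and not tested.

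In 16 of the 53 members the highest level was in stromal cells, in 12 in glial cells, in 10 in endothelial cells and in 7 in the Lyz2 cluster, with 2 each in epithelial, macrophage, mural and neuron cells. The highest level was 50 CPM or more for 19 members, 10 to 50 CPM for 18 and under 10 CPM for 16. Members together made up 1710.9, 2246.8 and 2397.7 CPM of stromal cells at P1, P7 and P14. In B cells at P14, given for comparison, members made up 156.6 CPM, or 6.53% of the stromal sum at that stage. B cells are known to make Adam10 and Adam17 themselves, so this sum is no pure background, and Adam10 stood at 19.3 CPM in them against 26.18 CPM in P14 stromal cells. Mmp2 stood at 18.59 CPM in those B cells, against 532.8 CPM in stromal cells of the same library.

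**Figure D1:**
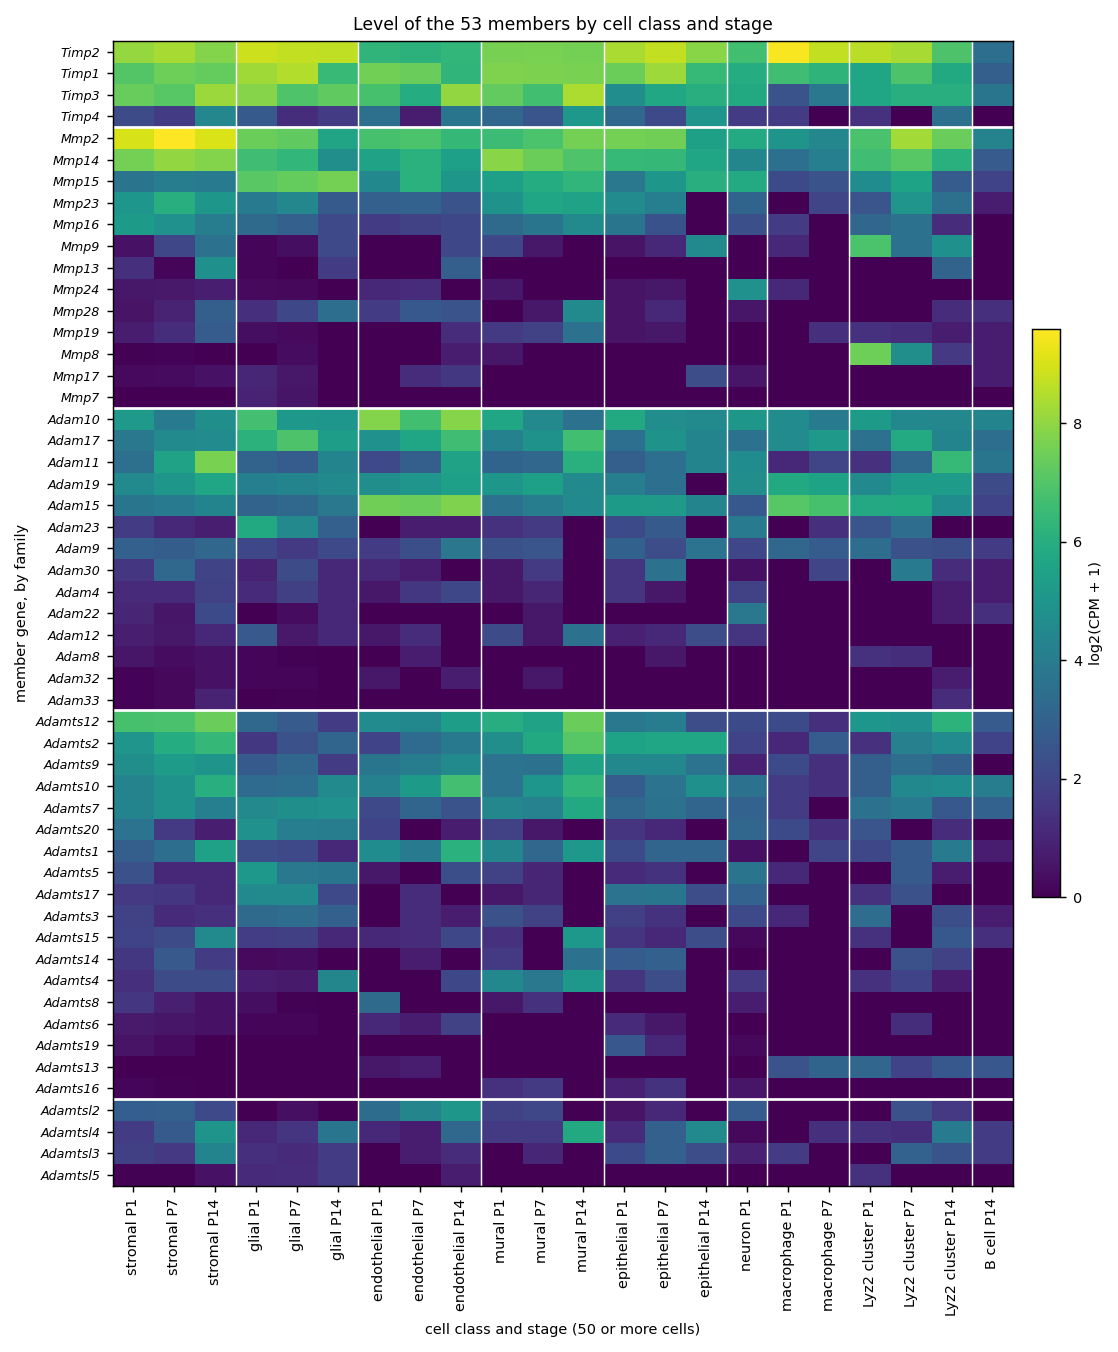
Heat map of the level, as log2(CPM + 1), of the 53 members (rows, grouped by family) in each cell class and stage with 50 or more cells (columns). Timp1, Timp2, Timp3, Mmp2 and Mmp14 are bright in most columns, Adam10 and Adam15 reach their highest values in endothelial cells, and Mmp8 is seen mainly in the Lyz2 cluster at P1 and P7.

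Promoters of 4 members are shown because these genes differed in how widely they were found, Timp1 and Timp3 in most classes and the collagenases Mmp13 and Mmp8 in few cells each. The 250 bases before the gene start were read from RefSeq (rat assembly GRCr8, not the assembly of the counts), as chr8:12782579-12782828 on the plus strand for Mmp13, chr8:13008640-13008889 on the plus strand for Mmp8, chrX:3771123-3771372 on the minus strand for Timp1 and chr7:19459559-19459808 on the minus strand for Timp3. Capitals mark the motifs searched, on both strands.
Mmp13: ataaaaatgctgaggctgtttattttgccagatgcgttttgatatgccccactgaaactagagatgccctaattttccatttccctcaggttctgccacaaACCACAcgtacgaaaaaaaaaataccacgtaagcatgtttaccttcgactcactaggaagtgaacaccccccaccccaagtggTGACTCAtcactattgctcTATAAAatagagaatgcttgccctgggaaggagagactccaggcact
Mmp8: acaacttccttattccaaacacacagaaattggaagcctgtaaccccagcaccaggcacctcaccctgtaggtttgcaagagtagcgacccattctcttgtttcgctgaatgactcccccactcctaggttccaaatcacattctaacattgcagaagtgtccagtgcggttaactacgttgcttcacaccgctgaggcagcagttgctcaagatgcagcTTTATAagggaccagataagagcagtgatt
Timp1: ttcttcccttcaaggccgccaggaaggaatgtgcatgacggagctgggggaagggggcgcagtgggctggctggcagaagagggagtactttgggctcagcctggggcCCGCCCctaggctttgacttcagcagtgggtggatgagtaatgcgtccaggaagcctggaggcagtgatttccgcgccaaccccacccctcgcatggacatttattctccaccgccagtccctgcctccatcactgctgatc
Timp3: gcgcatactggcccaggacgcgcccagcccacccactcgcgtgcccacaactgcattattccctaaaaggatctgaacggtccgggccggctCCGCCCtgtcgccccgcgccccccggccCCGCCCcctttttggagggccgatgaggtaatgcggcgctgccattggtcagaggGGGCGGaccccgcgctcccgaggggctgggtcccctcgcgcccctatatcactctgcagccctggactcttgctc
The motifs were the AP-1 site TGANTCA, the TATA box TATAAA, the GC box GGGCGG and the core of a Runx site TGTGGT. Of 33469 rat promoters of this length, 6.34% held the AP-1 letters, 12.9% the TATA box, 30.5% the GC box and 14.5% the Runx core. Among the 37 members with an entry, AP-1 letters stood in Adam19, Mmp13 and Mmp7, the TATA box in 7 members, the GC box in 24 and the Runx core in Mmp13. Members without an entry were Adam9, Adam11, Adam23, Adam32, Adam33, Adamts5, Adamts8, Adamts15, Adamts16, Adamts19, Mmp2, Mmp9, Mmp14, Mmp16, Mmp17 and Mmp19. A match is a description of letters in this window and says nothing about binding.

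Timp1, Timp2 and Timp3 were among the members found in most classes. Timp2, the inhibitor that also helps to activate proMmp2, was highest in macrophages at P1, at 716.2 CPM (661.4 to 774.3). At P7 macrophages had 418.7 CPM (371.1 to 470.8), beside 420.8 CPM (391.5 to 451.7) in epithelial cells. The Timp2 level was 464.8, 416.6 and 404.7 CPM in glial cells and 266.6, 320.1 and 223.4 CPM in stromal cells at P1, P7 and P14. After thinning each cell to 1000 UMIs, 43.9% of macrophages (34.3 to 53.9) had a Timp2 UMI at P1, against 23.3% of stromal cells (22.4 to 24.2), and before thinning the shares were 95.3% and 79.1%. Thinning left out no macrophage and 17 stromal cells at P1. At P14, 1.72% of B cells (0.633 to 3.70) had a Timp2 UMI on the same terms.

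Timp1, a soluble inhibitor often raised with growth and injury, was highest in glial cells at P7. It stood there at 295.8 CPM at P1, 361.6 CPM (353.5 to 369.7) at P7 and 86.96 CPM (68.74 to 108.5) at P14, so that the P14 value lay 4.16-fold under the P7 value. In endothelial cells Timp1 was 184.6, 166.1 and 75.89 CPM, again lowest at P14. Stromal cells did not share that order, at 129.6, 175.5 and 160.8 CPM. In mural cells the 3 values were 210.3, 207.9 and 202.2 CPM, with wide bounds at P14 (119.9 to 319.6).

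Timp3, which binds to the matrix itself and inhibits Adam and Adamts enzymes besides Mmp enzymes, was higher at P14 than at P7 in both stromal and endothelial cells. Stromal cells had 165.6, 137.9 and 285.4 CPM (271.4 to 300.0) at P1, P7 and P14, and endothelial cells 110.3, 60.16 and 260.8 CPM (235.9 to 287.5). Macrophages carried almost none, at 4.54 CPM at P1 and 13.46 CPM at P7, below the 25.14 to 65.4 CPM of epithelial cells. Timp4, the least abundant inhibitor, stood at 3.672, 2.181 and 20.69 CPM in stromal cells, and was at or below 12.32 CPM in endothelial cells and 5.589 CPM in glial cells.

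The balance of inhibitors and Mmp enzymes differed by class. The 13 Mmp members summed to 785.7, 1147.1 and 871.5 CPM in stromal cells at P1, P7 and P14, and the 4 Timp members to 565.5, 635.7 and 690.2 CPM, which gave Timp to Mmp ratios of 0.72, 0.554 and 0.792. The Timp sum was higher at P14 than at P7 on this scale but lower, at 798.7 against 841.4 CPM, when mitochondrial, ribosomal protein and globin genes were taken out of the total. It was also lower, at 623.7 against 635.7 CPM, when the stromal cluster led by Ptgds was left out. In glial cells the ratios were 2.27, 2.13 and 2.22, in endothelial cells 2.03, 1.1 and 2.32, and in epithelial cells 1.62, 2.39 and 2.27. Macrophages had the highest ratios, 16.8 (12.4 to 23.5) at P1 and 10.9 (7.56 to 16.4) at P7. Mmp UMIs thus outnumbered Timp UMIs in stromal cells at each stage, while in glial cells and macrophages Timp UMIs did. The Lyz2 cluster had ratios of 0.905, 0.9 and 0.87, with intervals that reached 1 or more.

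**Figure D2:**
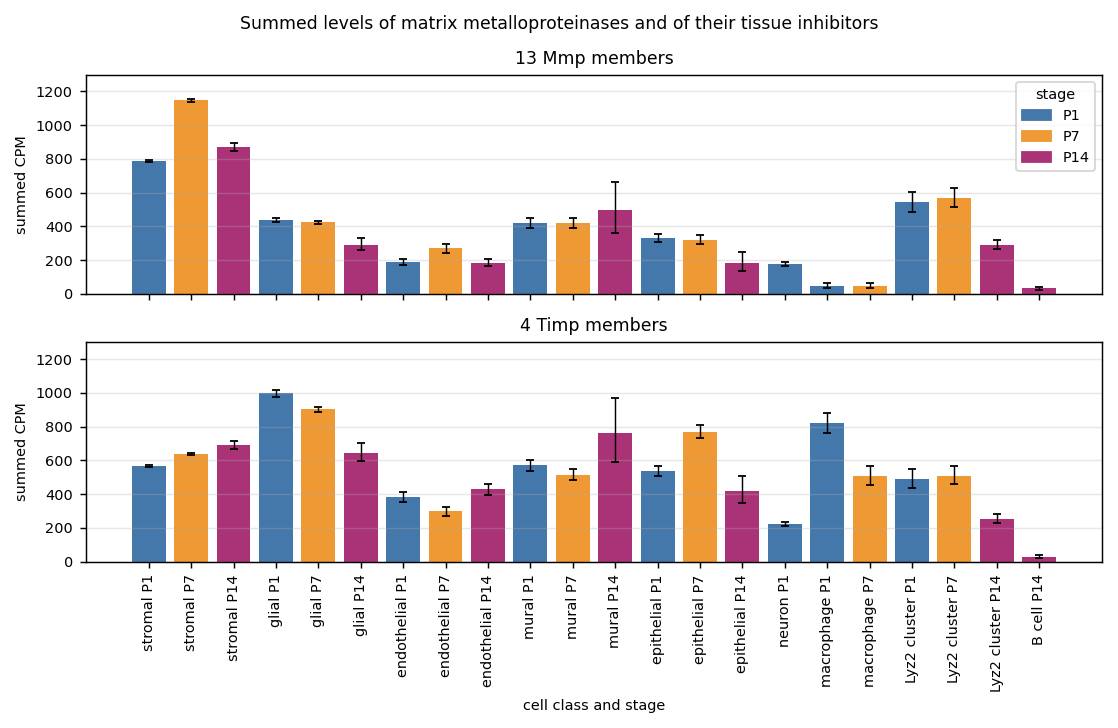
Summed CPM of the 13 Mmp members (upper panel) and of the 4 Timp members (lower panel) for each cell class and stage, with bars from 0 and exact 95% Poisson intervals. The stromal Mmp sum is 785.7, 1147.1 and 871.5 CPM and the stromal Timp sum 565.5, 635.7 and 690.2 CPM, and the order of the last 2 turns around when mitochondrial, ribosomal protein and globin genes leave the total.

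Mmp2, the gelatinase that cuts basement membrane collagen and denatured collagen, was the most abundant member. Its stromal level was 509 CPM (503.7 to 514.4) at P1, 771.8 CPM (764.6 to 779.0) at P7 and 532.8 CPM (513.6 to 552.5) at P14. The P7 value was the highest of the 3, by less than 2-fold, and the intervals of P1 and P14 overlapped. Of the 95061 Mmp2 UMIs over all libraries, 86.5% lay in stromal cells. After thinning, 38.9%, 52.2% and 38.4% of stromal cells had an Mmp2 UMI at P1, P7 and P14, against 0.935% of macrophages at P1 and 2.58% of B cells at P14. Without thinning the stromal shares were 87.2%, 93.3% and 51.0%.

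Mmp14, the membrane-bound activator of proMmp2 and itself a collagenase, followed the same order in stromal cells, with 192.9, 261.8 and 224.3 CPM. Mural cells had 237.9 CPM at P1 and 174.1 CPM at P7. Co-detection of Mmp14, Mmp2 and Timp2, the parts of the activation complex, was seen after thinning in 2.11% (1.82 to 2.43), 3.73% (3.30 to 4.19) and 1.52% (1.10 to 2.06) of stromal cells. In glial cells the shares were 0.709%, 0.439% and 0 of 327 cells, with an upper bound of 1.12% for the last. Such shares also depend on how often each gene is found alone, and co-detection beyond that was not tested.

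The other membrane-type enzymes had distinct places. Mmp15 was highest in glial cells, at 139.3, 160.9 and 192.9 CPM (165.2 to 223.9) in glial cells against 11.81 to 15.28 CPM in stromal cells. Mmp16 was stromal, at 36.15, 27.6 and 15.38 CPM. Mmp24, known from neurons, had 28.07 CPM (24.01 to 32.62) in neurons at P1, and the neuron class of all stages, 295 cells, held 59.7% of its 288 UMIs in all. A cluster of hair cell-like cells at P1 was too small to be ranked, and its higher Mmp24 value is given at the end. Mmp17 had 65 UMIs in all and no level above 1.946 CPM in a class with at least 400000 UMIs.

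The collagenases and Mmp9 were carried by few cells. Mmp13, the collagenase of bone and growing cartilage, had 106, 5 and 147 UMIs in stromal cells at P1, P7 and P14, or 1.538, 0.08723 and 26.91 CPM. These UMIs came from 17, 4 and 14 cells, and the 5 richest cells held 80.2% of them at P1 and 85.0% at P14. At P14, osteoblast markers (Bglap, Ibsp, Sp7, Runx2, Alpl and Dmp1) summed to 17679 CPM (16370 to 19064) in the 14 stromal cells with Mmp13 and to 5144.5 CPM (5084.4 to 5205.3) in the 2895 without. At P1 the sums were 818.5 CPM in the 17 cells with Mmp13 and 39.43 CPM in the others. The cluster led by Coch, in which Dmp1 is also among the leading genes, held 144 of the Mmp13 UMIs over all stages in 11 cells. Osteoblast markers summed to 8967.8 CPM in that cluster over all stages. They summed to 622.2 CPM in the cluster led by Ptgds and 429.6 CPM in the one led by Clec3b. Nearly all P14 stromal cells lay in these clusters. The part of cluster membership in the P14 difference was not tested. The comparison of cells with and without Mmp13 was chosen after the Mmp13 values were seen.

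Mmp8, the neutrophil collagenase, lay almost wholly in the Lyz2 cluster, with 90.3% of its 145 UMIs. Its level there was 176.8 CPM (145.3 to 213.1) at P1, 25.42 CPM at P7 and 1.989 CPM at P14, from 8, 3 and 3 cells. Mmp9, the gelatinase of neutrophils and osteoclasts, had 115.7 CPM in the same cluster at P1 from 10 cells, and 39 of its 41 UMIs there at P14 came from 1 cell. In stromal cells Mmp9 was at 0.3918, 3.123 and 10.8 CPM, spread over 16, 98 and 40 cells.

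The remaining Mmp members were lower. Mmp23, a membrane-anchored enzyme that lacks the hemopexin domain, had 32.01, 64.26 and 33.14 CPM in stromal cells, highest at P7. Mmp28, known from epithelia and from myelinating nerve, was highest in glial cells at P14, at 10.03 CPM from 9 UMIs. Mmp19 was stromal, at 0.653, 1.378 and 5.859 CPM, and Mmp7 had 20 UMIs, of which 95% were in glial cells.

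Among the Adam genes, endothelial cells stood out for the sheddases Adam10 and Adam15. Adam10, which cuts Notch and cadherins at the membrane, had 221.7 CPM (200.5 to 244.5), 103.3 CPM (87.84 to 120.7) and 231.6 CPM (208.2 to 256.9) in endothelial cells at P1, P7 and P14. Stromal cells had 35.54, 14.79 and 26.18 CPM and glial cells 104, 33.68 and 32.33 CPM. The P7 value lay below the P1 value in 5 of the 6 classes named next, by 2-fold or more on the scale with 1 CPM added. The folds of P7 over P1 were 0.416 in stromal, 0.324 in glial, 0.466 in endothelial, 0.443 in mural and 0.457 in epithelial cells, while macrophages had 23.84 and 14.95 CPM on 21 and 10 UMIs. All of these values share the same P1 and P7 libraries, so they are not separate evidence. Adam15, which carries an integrin-binding motif, was at 180.1, 167.4 and 211.5 CPM in endothelial cells and at 135.1 and 109.2 CPM in macrophages at P1 and P7.

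Adam17, the enzyme that releases tumor necrosis factor and epidermal growth factor receptor ligands, was highest in glial cells at P7, with 71.5, 119.3 and 39.02 CPM over the stages. In endothelial cells the highest value was that of P14, with 28.27, 50.35 and 98.59 CPM. Adam19, a sheddase of neuregulin, was found in most classes, with 55.62 CPM in macrophages at P1 and 49.8 CPM in stromal cells at P14.

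Adam11, Adam22 and Adam23, which lack an active protease site, are known as adhesion proteins of nerve and, for the latter pair, as Lgi receptors. Adam11 stood in stromal cells at 10.51 CPM (9.755 to 11.3), 44.84 CPM (43.12 to 46.61) and 200.5 CPM (188.8 to 212.7). Stromal cells were the highest class at P7 and P14, while at P1 neurons were higher, at 24.6 CPM (20.81 to 28.88). The stromal Adam11 UMIs were spread over 640, 1819 and 766 cells, with at most 7 in any of them. After thinning, 0.999%, 4.94% and 17.7% of stromal cells had an Adam11 UMI at P1, P7 and P14, against 1.15% of B cells at P14. Adam23 was glial, at 55.51, 21.86 and 6.689 CPM. Adam22 had its highest level in neurons, at 13.37 CPM (10.62 to 16.62) at P1, while stromal cells held 54.8% of its UMIs and neurons 36.7%.

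The procollagen N-proteinases were led by Adamts2, the enzyme that trims type I procollagen. Adamts2 had 31.33, 61.08 and 83.31 CPM in stromal cells, and 46.03, 50.06 and 50.01 CPM in epithelial cells. Adamts14 reached 6.601 CPM in epithelial cells and 5.408 CPM in stromal cells at P7, and Adamts3 9.664 CPM in glial cells at P7. Of the proteoglycanases, Adamts1 was highest at P14 both in endothelial cells (24.39, 15.04 and 69.4 CPM) and in stromal cells (6.516, 9.962 and 43.39 CPM). Adamts9 was stromal, at 25.61, 37.37 and 30.21 CPM.

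Another pair of versican- and aggrecan-cutting enzymes had its highest class levels in glial cells at P1. Adamts5 had 34.02, 13.18 and 12.26 CPM and Adamts20 28.14, 16.37 and 15.61 CPM in glial cells. Stromal Adamts20 was 11.61, 2.111 and 0.7324 CPM. Stromal cells held 50.5% of Adamts20 UMIs and glial cells 35.8%, while for Adamts5 the shares were 28.9% and 51.9%. The stromal clusters with the most of each gene, given below over all stages, lay above the glial values of P7 and P14. Adamts4 was highest in mural cells, at 21.25 CPM at P1 and 13.19 CPM at P7, and was 20.07 CPM in glial cells at P14 from 18 UMIs. Adamts15 reached 23.07 CPM in stromal cells at P14, from 2.844 and 3.594 CPM before. The highest level of Adamts8, 8.869 CPM in endothelial cells at P1, came from 16 UMIs of 1 cell.

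Adamts12, which cuts cartilage oligomeric matrix protein, was the most abundant Adamts member. It stood at 109.2, 112.5 and 169.2 CPM in stromal cells, which held 90% of its UMIs. Adamts10, a fibrillin-binding enzyme, was at 18.79, 29.83 and 66.1 CPM in stromal cells and 17.74, 36.62 and 105.1 CPM in endothelial cells. Adamts7 was similar in stromal and glial cells (18.88, 29.31 and 16.84 CPM; 21.68, 26.22 and 27.87 CPM). Adamts17, another fibrillin-related enzyme, was glial at P1 and P7, with 22.74 and 23.41 CPM, and had 3.345 CPM at P14. Adamts13, the von Willebrand factor protease, had 35 UMIs, 42.9% of them in the Lyz2 cluster and 25.7% in macrophages.

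The Adamtsl proteins lack a catalytic domain, and several bind fibrillin microfibrils. Adamtsl2 had its highest level in endothelial cells, at 9.423, 19.62 and 33.08 CPM, and had 3.296 to 6.665 CPM in stromal cells. Stromal cells held 79.4% of its UMIs and endothelial cells 9.26%. At P1 the endothelial interval (5.489 to 15.09) covered the stromal level of 6.385 CPM. Adamtsl4 stood at 2.235, 5.653 and 30.58 CPM and Adamtsl3 at 2.511, 2.024 and 19.22 CPM in stromal cells. Adamtsl5 had 58 UMIs, of which 74.1% were glial.

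Low members complete the account. Adam9 and Adam4 had their highest level in endothelial cells at P14 (12.97 and 3.243 CPM), Adamts6 there too (2.595 CPM), and Adam12 in glial cells at P1 (5.396 CPM). Adam30 was highest in the Lyz2 cluster at P7, at 14.12 CPM from 10 UMIs, beside 8.462 CPM in stromal cells. Adam8, Adam32 and Adam33 also ranked highest in that cluster, on at most 2 UMIs each. Adamts16 was highest in mural cells at P7 (2.111 CPM) and Adamts19 in epithelial cells at P1 (5.114 CPM). Just inside the limit of 20 UMIs lay Mmp7 with 20, Adam33 with 22 and Adam32 with 26, and just outside it Adamts18 and Mmp12 with 15 each and Adam18 with 11. Of the 17 matching symbols under the limit, 9 had no UMI at all, among them Mmp1, Mmp10 and Mmp20, and Mmp3, a stromelysin, had 7.

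Stages were compared first in stromal cells, between P1 and P7 and then between P7 and P14. A member was compared where its mean CPM over the 2 stages was 10 or more, and counted where log2(CPM + 1) differed by 1 or more. From P1 to P7, 18 members were compared, with all of them at or above 10 CPM in both stages. Adam11 was higher at P7, by 4.27-fold (3.93 to 4.64), and Adam10 lower, at 0.416 of its P1 level (0.385 to 0.45). Over all 7387 genes compared, 8.39% were higher and 4.09% lower by 2-fold or more, so that the members' counts were at or near the background. The members' median log2 ratio was 0.48, against 0.11 over all genes at or above 10 CPM in both stages. The other 35 members were too low to compare.

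From P7 to P14, 24 members were compared in stromal cells. Adam11 was 4.47-fold higher (4.16 to 4.80), Adamts10 2.22-fold (1.97 to 2.48) and Timp3 2.07-fold (1.96 to 2.19). Timp3 went below 2-fold under 8 other settings and Adamts10 under 3. The other 6 of the 9 higher members, Adamts1, Adamtsl4, Timp4, Adamts15, Adamtsl3 and Mmp13, were compared only because of their P14 level, so their count supports nothing. Their folds were 4.36, 5.41, 9.49, 6.42, 9.5 and, on 5 UMIs at P7 and the 14 cells named above at P14, 308.5 (129.3 to 964.3) for Mmp13. No member was lower, while Mmp2 was at 0.69 and Timp2 at 0.698 of their P7 levels. Over all 7944 genes compared, 16.4% were higher and 10.8% lower by 2-fold or more. Over the 18 members at or above 10 CPM in both stages the median log2 ratio was -0.01, against 0.01 over all genes that met the same limit. Taking mitochondrial, ribosomal protein and globin genes out of the total shifted all stromal log2 ratios by -0.19 in this comparison and by -0.09 between P1 and P7.

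**Figure D3:**
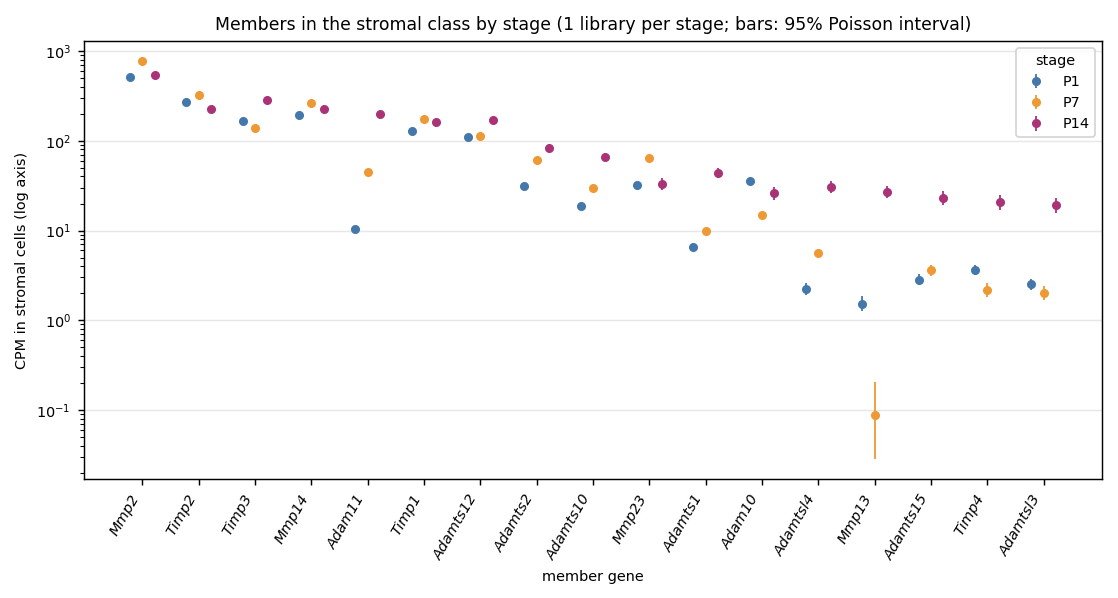
Level in stromal cells, in CPM on a log axis, of 17 members at P1, P7 and P14, ordered by their highest level, with exact 95% Poisson intervals that cover counting error only. Adam11 climbs from 10.51 to 44.84 and 200.5 CPM, Adam10 dips to 14.79 CPM at P7, and Mmp13 has a wide interval at P7, where it rests on 5 UMIs.

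Stromal cells of P14 did not lie in the clusters of P1 and P7. The clusters led by Coch, Ptgds and Clec3b held 1731, 858 and 313 of the 2909 P14 cells, while 8 other clusters held nearly all stromal cells of P1 and P7. Osteoblast markers in the stromal class summed to 40.94, 158.4 and 5232.2 CPM at P1, P7 and P14, and to 8967.8 CPM in the Coch cluster, and their part in the stage differences was not tested. The levels of a stage thus depend on which of its clusters are counted. Timp3 was 562.6 CPM in the Ptgds cluster at P14, against 158.2 CPM in the Coch cluster and 199.8 CPM in the Clec3b cluster. Without the Ptgds cluster, the log2 ratio of Timp3 between P14 and P7 was 0.28, and those of Timp4 and Adamts15 were 2.52 and 0.61, so that Timp3 and Adamts15 were under 2-fold and Timp4 fell below the limit on mean level.

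Without the Coch cluster, 12 members differed by 2-fold or more, 6 in each direction. Mmp2, Mmp14, Mmp16, Mmp23, Timp1 and Adamts9 were then lower at P14, and Adamts10, Adamtsl3 and Mmp13 were no longer counted. The share of all genes past 2-fold without the Coch cluster is not given here, so these counts are not a result about the members. Leaving out the Clec3b cluster removed Adamtsl3. Adam11 and Adamts1 stayed past 2-fold under each of these choices, with log2 ratios of 1.02 to 2.37 and 1.42 to 2.74 over all settings tried.

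Among the P1 and P7 clusters, the one led by Dlx5 had the most Mmp2 (1120.8 CPM), Mmp23 (84.47 CPM) and Adamts2 (92.39 CPM), and the one led by Aard the most Timp2 (451.5 CPM) and Mmp14 (339.6 CPM). The cluster led by Sp5 was low in both, at 189.4 CPM of Mmp2 and 114.7 CPM of Mmp14, and held the highest stromal Adamts5, at 15 CPM. The cluster led by Isyna1 had the highest Adamts20 and Adamtsl2, at 20.94 and 11.87 CPM.

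**Figure D4:**
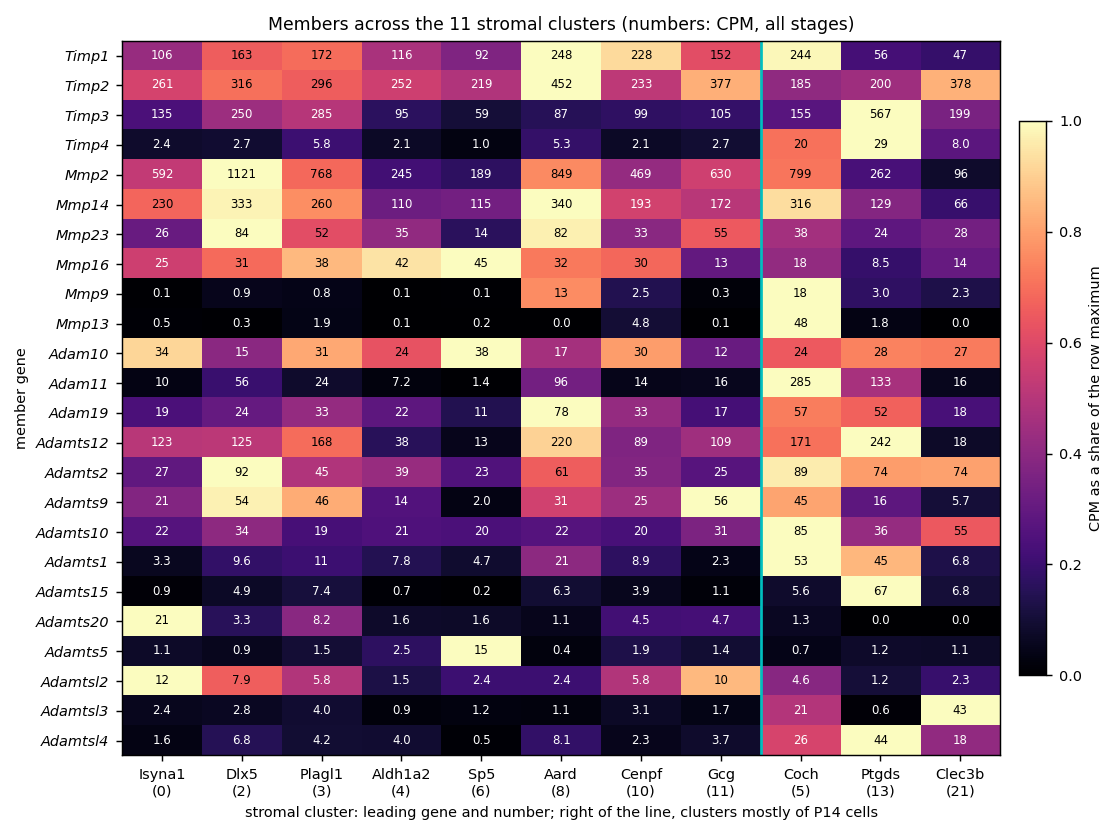
Heat map of 24 members (rows) over the 11 stromal clusters (columns, named by leading gene and number), with CPM over all stages printed in each cell and color as the share of the row's highest value. Right of the line are the 3 clusters mostly of P14 cells, in which Adam11, Adamts10, Adamts15, Adamtsl3, Adamtsl4, Timp3, Timp4 and Mmp13 have their highest values.

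In glial cells 15 members were compared between P1 and P7. Adam10, Adam23 and Adamts5 were lower at P7, at 0.324 (0.294 to 0.356), 0.394 (0.348 to 0.446) and 0.388 (0.33 to 0.455) of their P1 levels, and no member was higher. Over all glial genes compared, 6.67% were lower and 7.53% higher by 2-fold or more, and the median log2 ratio over genes at or above 10 CPM in both stages was 0.10, against -0.16 for the members. The cluster led by Mt3 held 331 of 361 glial cells at P14, and the glial cells of P1 and P7 lay in other clusters, those led by Pcsk1 and Ube2c among them. Within the Pcsk1 cluster Adam10 was 99.72 CPM at P1 and 27.28 CPM at P7, and within the Ube2c cluster 91.43 and 31.39 CPM, so the P7 value was also the lower one inside these clusters.

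From P7 to P14, 7 of 19 glial members were lower and 3 higher. Mmp2 was at 0.32 (0.231 to 0.432), Mmp14 at 0.317, Timp1 at 0.241 and Adam17 at 0.327 of the P7 level, with 43, 23, 78 and 35 UMIs at P14. Mmp23, Adam23 and Adamts17 were at 0.268, 0.306 and 0.143, and these 3 were compared through their P7 level. Adam11, Adamts10 and Adamts4 were 3.18-fold, 2.23-fold and 32.9-fold higher, and were compared through their P14 level. In the Mt3 cluster, with most glial cells of P14, Mmp23, Adam23 and Adamts17 had 5, 5 and 3 UMIs at P14. Adam11, Adamts10 and Adamts4 had 16, 19 and 18 UMIs there. Among all 7433 genes, 15.8% were lower and 16.9% higher. Over the 12 members at or above 10 CPM in both stages the median log2 ratio was -0.06, against -0.07 over all such genes. Glial markers summed to 21053 CPM at P7 and 82098 CPM at P14, and the part of this difference in the results was not tested. The P14 comparison sets the Mt3 cluster against other clusters, so cluster and stage cannot be told apart.

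The endothelial class was 1 cluster, with 165, 181 and 981 cells. Another cluster, led by Slco1a4, had 112 cells, 104 of them at P14. Endothelial markers also led there, with 7 detected, but it was left unnamed and is not counted in this class. Mmp15 was 3.23-fold (2.21 to 4.81) and Adamts10 2.06-fold (1.31 to 3.29) higher at P7 than at P1, and Adam10 was at 0.466 of its P1 level (0.385 to 0.562). These were 3 of 15 members compared, with 8.63% of all genes higher and 4.62% lower. From P7 to P14, Timp3 was 4.33-fold (3.45 to 5.50), Adam10 2.24-fold (1.85 to 2.72), Adam11 6.84-fold, Adamts10 2.87-fold and Adamts1 4.61-fold higher, while Timp1 and Mmp15 were at 0.457 and 0.486 of their P7 levels. Of 17 members compared, 5 were higher and 2 lower, beside 26.5% and 7.82% of all genes. Adam11 was compared through its P14 level. Over members at or above 10 CPM in both stages of a comparison, the median log2 ratio was -0.01 between P1 and P7 (14 members) and 0.55 between P7 and P14 (15 members), against 0.09 and 0.22 over all such genes. Marker sums of other classes were also higher in endothelial cells at P14 than at P7, those of glia going from 790.6 to 4831.7 CPM, of osteoblasts from 325 to 1486 CPM and of stromal cells from 1691.7 to 2985.7 CPM, while endothelial markers went from 5993.2 to 6510.4 CPM. Adam11 stood at 200.5 CPM in P14 stromal cells and at 12.15 CPM in B cells of that library. The part of these differences in the endothelial results was not tested. At P14 the median endothelial cell had 1154 UMIs, against 6820 at P7.

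Mural and epithelial cells were too few in UMIs at P14 to compare. Between P1 and P7, mural cells had more Adamts2 (25.49 and 56.46 CPM) and Adamts10 (11.68 and 31.66 CPM) and less Adam10 (48.86 and 21.63 CPM) and Adamts1 (20.18 and 7.915 CPM), the last compared through its P1 level. These were 2 higher and 2 lower of 19 members compared, beside 6.28% and 4.92% of all mural genes. Epithelial cells had more Timp3 (25.14 and 53.36 CPM), Mmp15 (13.21 and 32.46 CPM) and Adam17 (10.23 and 28.61 CPM) at P7 and less Adam10 (55.4 and 25.3 CPM). These were 3 higher and 1 lower of 15 members compared, beside 11% and 5.67% of all epithelial genes. In the epithelial class glial markers went from 1000.2 to 2404.5 CPM, stromal markers from 1142.5 to 2551.4 CPM and cochlear epithelium markers from 4105.6 to 8056.7 CPM between P1 and P7. In mural cells glial markers went from 578.4 to 1335.5 CPM and stromal markers from 3001.4 to 3621.9 CPM. The part of these marker differences in the values was not tested. Timp1 and Timp2 made up most epithelial inhibitor RNA, at 292.1 and 420.8 CPM at P7.

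A list of other genes of the pathway gave context in stromal cells, where 8.39% of all genes were higher and 4.09% lower at P7 than at P1, and 16.4% higher and 10.8% lower at P14 than at P7. None of the activators of proteases (Furin, plasminogen activators and kin, 8 genes) that could be compared differed by 2-fold, at 0 of 4 between P1 and P7 and 0 of 5 between P7 and P14. Of 11 other inhibitors and clearance genes, 4 were compared, and 3 were higher at P7 than at P1: Reck, a membrane-anchored Mmp inhibitor (12.63, 38.59 and 89.53 CPM over the stages), Serpine2 (1065.4, 2158.4 and 3188.9 CPM) and the clearance receptor Lrp1 (179.6, 373.5 and 664.6 CPM). From P7 to P14 Reck was again higher and Serpinf1 lower (1042.2 to 137.3 CPM).

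Of the related metalloproteinases, 4 were compared in each step. Bmp1, the procollagen C-proteinase, Ece1 and Phex, a peptidase of bone mineral control, were higher at P7 than at P1 (39.92 to 88.56, 20.55 to 50.58 and 2.148 to 20.69 CPM), and Phex was compared through its P7 level. Phex was higher again at P14, at 170.1 CPM, and Mme lower, at 32.96 CPM from 116.2 CPM. Among cofactors, 0 of 6 differed in the first step and Tspan5, a partner of Adam10, was higher in the second (22.52 to 62.62 CPM). Of the substrates, Dcn was higher in both steps (686.4, 2386.5 and 4883.9 CPM), Acan was higher at P14 (4.397 to 16.84 CPM, compared through its P14 level), and Vcan (188.2 to 27.1 CPM) and Fbn2 (145.4 to 20.14 CPM) were lower at P14, among 5 and 6 compared. Several of these genes, Phex among them, are also known from bone, and the osteoblast markers beside them are those given for the stromal clusters.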

How the data were processed

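Single-cell RNA libraries were made from cochlear cells at 3 stages, with 1 library per stage, and grouped by the age in the labels. The authors deposited, per library, a matrix of UMI counts per gene and barcode (unit count, not normalized). The file headers name Cell Ranger 3.1.0, and the submitters' processing notes name the rat build rn6, bcl2fastq and Seurat 3.1.1. The matrices held 34927 barcodes, which is also the number of cells the study states. Barcodes with more than 500 and fewer than 5000 genes and under 25% mitochondrial UMIs were kept, as in the study's methods, which left 30641. No column lacked a sample (0 columns).

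Kept cells were normalized, scaled and clustered with Seurat 5.3.0 in R 4.3.3 (2000 variable genes, 10 principal components, resolution 0.8, seed 0), with 6 members among the variable genes. Doublets were marked with Scrublet in scanpy 1.11.5 but not removed in the values reported. Clusters were named from fixed marker lists, with 3 or more detected markers needed. UMIs were then summed per class and stage and divided by all UMIs of those cells, in Python 3.11.15 (pandas 2.3.3, scipy 1.17.1, numpy 2.4.6). Classes and stages of 50 or more cells were given levels, and those of 400000 or more UMIs were ranked or compared. Intervals were exact at 95%, ratio intervals coming from the exact binomial split of the counts. A ratio was called past 2-fold on log2(CPM + 1), for a mean of 10 CPM or more. No test across stages was possible with 1 library each, and no p-value is given. Shares of cells were compared after thinning to 1000 UMIs. The scripts for levels and ratios were tested on simulated data.

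Values were given for every Timp gene, for members with 50 CPM or more in a class and stage of 50 or more cells, and for members past 2-fold, at most 10 for each class and stage pair. All other members were named with the class of their highest level. Members and gene lists were chosen with earlier results of these data known. The details of the class names, the limit of 400000 UMIs and the counts of cells holding Mmp13, Mmp8, Mmp9, Mmp24, Adam11 and Adamts8 were settled after values had been seen. Alternatives varied the mitochondrial limit, doublets, clustering, scaling, thinning, added CPM and low-level filter, and, added after seeing the data, shared barcodes and single stromal clusters. The values of 1 glial cluster on its own are not reported here.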

Additional observations from a re-analysis of the deposited data

Results flagged for a closer look

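Barcodes that the filter left out were not used in any comparison, and they also held members' UMIs. The members summed to 1028.9 CPM in the 1289 left-out barcodes of P1, 1111.3 CPM in the 1920 of P7 and 1629.2 CPM in the 1077 of P14, against 1617.3, 2021.3 and 1651.9 CPM in kept cells. The cluster of 21 hair cell-like cells, all of P1, was too small for a level in the report. Timp2 stood there at 103.6 CPM (71.73 to 144.7), from 34 UMIs in 18 of the 21 cells. No control library exists for either value.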

How the results depend on the processing

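Of 80 summary values recomputed, 68 stayed within their limits and 12 moved, and of 170 single-gene ratios 19 fell under 2-fold or under the level filter and 0 changed sign. Without mitochondrial, ribosomal protein and globin genes in the total, the stromal Timp sum was 798, 841.4 and 798.7 CPM at P1, P7 and P14. The P14 sum was 656.5 CPM as a mean of per-cell values, 773.3 CPM without the Coch cluster and 623.7 CPM without the Ptgds cluster, and the P1 sum was 578.8 CPM after thinning. The stromal count between P1 and P7, 2 members in the report, was 4 after thinning and 4 without the Gcg cluster (Mmp23 and Adamts2 added), 1 with 10 CPM added (Adam10 lost) and 9 with no filter. Between P7 and P14 it was 15 with no filter, against 9. The cause of these moves was not tested, apart from the larger number of members compared without the filter. Shares over all genes under these other settings are not given here, so the member counts are not read as results about the members. Timp3 stayed past 2-fold in 8 of 16 alternatives, Adam11 in all 16, and their log2 ratios ranged from 0.28 to 1.64 and from 1.02 to 2.37. Scrublet marked 0.0379% of P14 barcodes and is void there. No paired analysis was possible because each stage has 1 library. The median P14 cell had 1614 UMIs, against 6565 and 6878 at P1 and P7, so low members are least precise at P14.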

Other observations

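The Lyz2 cluster changed its marker content between stages, and its members' levels are given here as values only. At P7 its Mmp2 stood at 303.6 CPM, against 112.5 CPM at P1, while Mmp8 and Mmp9 stood at 25.42 and 11.3 CPM, against 176.8 and 115.7 CPM. At P14 Timp2 was 120 CPM, from 324.8 CPM at P7, and Adam11 was 84.85 CPM, from 8.473 CPM. Stromal markers summed in this cluster to 3265.7, 6598.9 and 6947.6 CPM at P1, P7 and P14, and their part in these values was not tested. In the hair cell-like cluster, Mmp24 stood at 54.83 CPM (32.5 to 86.66), from 18 UMIs in 11 cells. Neurons of the same stage had 28.07 CPM (24.01 to 32.62) of Mmp24. Adam10 stood at 48.74 CPM and Adamts2 at 33.51 CPM in the hair cell-like cluster.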
